A study of Mus musculus with 18 samples.

Results

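The interferon-inducible GTPases described here are the guanylate-binding proteins Gbp2, Gbp3, Gbp5 and Gbp7, the immunity-related GTPases Igtp, Irgm1 and Iigp1, and the dynamin-like proteins Mx1 and Mx2. The members were chosen by name, and these 9 genes are among 56748 genes in the count table. RNA was sequenced in bulk from RAW 264.7 cells, a mouse macrophage-like line, in 18 libraries from 6 conditions with 3 libraries each. The conditions were untreated control cells, cells given 5 µM TBHQ for 4 h, cells given lipopolysaccharide (LPS) at 0.1 µg/mL for 12 h, cells given the synthetic double-stranded RNA polyinosinic:polycytidylic acid (PIC) at 20 µg/mL for 12 h, and cells given TBHQ for 4 h before either stimulus for a further 12 h (LPS+TBHQ and PIC+TBHQ). TBHQ (tert-butylhydroquinone) is a synthetic antioxidant used as a food preservative and known as an activator of the transcription factor Nrf2. The study's methods call the libraries of a condition biological replicates. Cells given TBHQ alone were collected when the other cultures received their stimulus, while the study's timeline puts the controls in medium for 12 h, so that time in culture and TBHQ cannot be told apart in that comparison. The control cells are described as untreated, so that TBHQ and its solvent cannot be told apart either. The study's methods name no solvent for the cells given LPS or PIC alone. The same limit therefore holds where pretreated cells are compared with cells given the stimulus alone. Each library held between 14423390 and 18851626 counts, and 27701 genes had at least 1 count in some library.

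All 9 genes encode large GTPases whose transcription is switched on by interferons. Guanylate-binding proteins assemble on vacuoles that hold intracellular pathogens and on bacteria that have escaped them, and they help to start caspase signalling in macrophages. Among the immunity-related GTPases, Iigp1 is an effector that coats and breaks pathogen vacuoles, while Irgm1 and Igtp sit on host membranes and keep the effectors inactive there. Mx proteins form rings and filaments that block the replication of viruses, mouse Mx1 in the nucleus and Mx2 in the cytoplasm, and many inbred mouse strains carry defective Mx1 alleles. LPS is sensed by Toll-like receptor 4 and PIC by sensors of double-stranded RNA, and macrophages that meet either can secrete type I interferon, which acts back on the same cells through a receptor, the JAK kinases and the STAT and IRF transcription factors.

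Unstimulated cells already transcribed most of the family. In FPKM, a unit that divides fragments by gene length and library depth so that levels of different genes can be compared, Irgm1 was the highest in control cells at 18.5 ± 0.176 (mean ± SD, n = 3). Igtp followed at 10.2 ± 0.271 FPKM, and Mx2, Gbp7 and Gbp3 were close together at 5.32 ± 0.577, 4.53 ± 0.267 and 4.30 ± 0.558 FPKM. Gbp2 stood at 1.83 ± 0.0287 FPKM, and Gbp5, Mx1 and Iigp1 were low at 0.346 ± 0.0441, 0.281 ± 0.0879 and 0.105 ± 0.0332 FPKM. The members that protect host membranes were thus the most abundant at rest, and the effector Iigp1 was the least. In cells given PIC that order changed, with Gbp3 at 37.2 ± 2.03, Irgm1 at 35.9 ± 1.45 and Gbp2 at 25.9 ± 0.161 FPKM. Iigp1 was measured at 0 to 22 counts per library and entered the tests only through PIC, the single condition with all 3 libraries above the low-count filter, and Mx1 was measured at 1 to 61 counts. Counting intervals, given with ratios of such low counts, cover counting error only.

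The summed level of the 9 genes is carried by the abundant members, and in control cells mostly by Irgm1 and Igtp, so that the low members hardly show in it. It was 46.9, 44.1 and 45.3 FPKM in the control libraries, 98.9, 104 and 103 with LPS and 152, 152 and 154 with PIC. TBHQ alone gave 30.5, 31.6 and 31.4 FPKM, LPS+TBHQ gave 37.0, 37.2 and 38.6, and the sum in PIC+TBHQ was 79.1, 75.2 and 76.8. The libraries of no pair of conditions overlapped in this sum. LPS+TBHQ lay under the untreated controls and PIC+TBHQ lay between the controls and LPS. In bulk RNA, fewer responding cells and less RNA in each cell cannot be told apart.

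**Figure D1:**
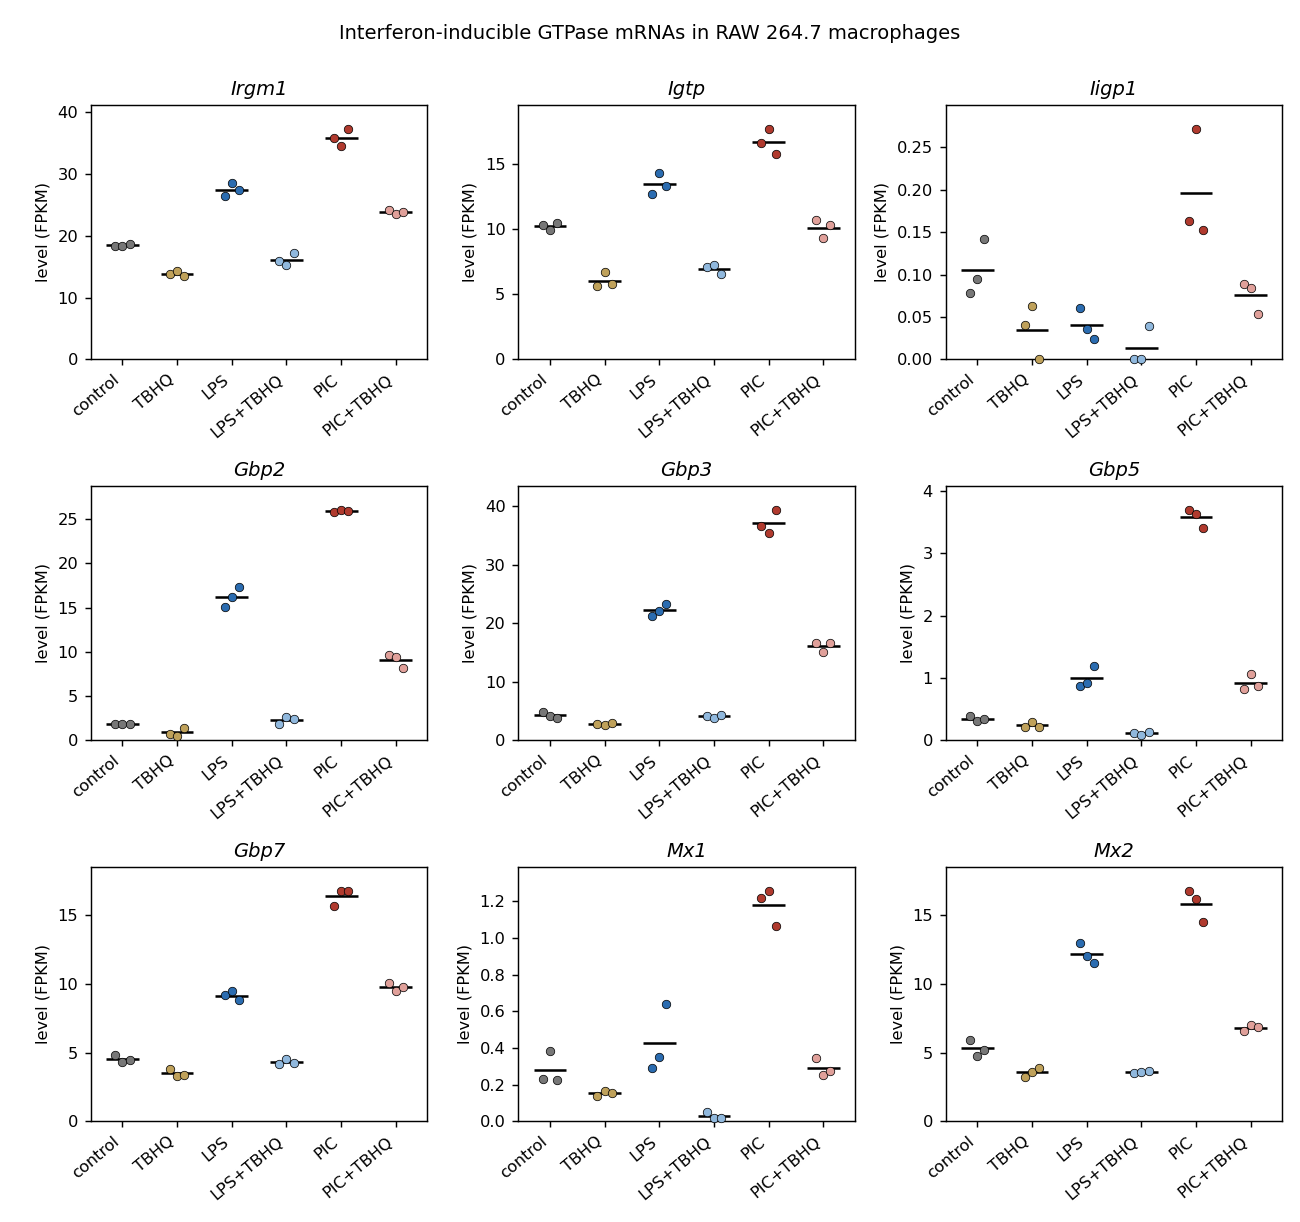
Level of each of the 9 GTPase genes in FPKM (vertical axis, separate scale for each gene, starting at 0) in the 6 conditions (horizontal axis). Each point is 1 library and each horizontal line is the mean of 3 libraries. PIC had the highest mean for each gene other than Iigp1, for which no order is read. The Gbp2 libraries of LPS+TBHQ lay at 1.90, 2.68 and 2.38 FPKM against 15.1, 16.1 and 17.3 with LPS.

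The first comparison asks how far each stimulus raised the family over untreated cells. Gbp2, which is recruited to vacuoles of Toxoplasma and to bacteria, had 70, 74 and 79 counts in the control libraries, 539, 583 and 622 with LPS and 884, 911 and 1105 with PIC. These are counts as deposited, and all tests scale them for depth. The 3 sets of libraries did not overlap, and PIC was above LPS. Gbp2 rose with LPS by 3.14 on the log2 scale (SE 0.0591, 8.80-fold, adjusted p = 2.84e-21 by the quasi-likelihood test of edgeR with Benjamini-Hochberg adjustment) and with PIC by 3.81 (SE 0.0127, 14-fold, adjusted p = 1.19e-24). Gbp3 had 247, 219 and 213 counts in control cells, 988, 1035 and 1088 with LPS and 1632, 1609 and 2179 with PIC. Every stimulated library was above every control library. Gbp3 rose by 2.37 with LPS (SE 0.112, 5.15-fold, adjusted p = 1.3e-24) and by 3.10 with PIC (SE 0.114, 8.57-fold, adjusted p = 4.91e-29).

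Gbp5, a guanylate-binding protein linked to assembly of the NLRP3 inflammasome, also rose with each stimulus. It had 40, 33 and 38 counts in control cells, 82, 88 and 113 with LPS and 335, 334 and 382 with PIC. The PIC libraries stood above those of LPS, and those above the controls, with no overlap. Its log2 rise was 1.52 with LPS (SE 0.170, 2.86-fold, adjusted p = 3.58e-09) and 3.35 with PIC (SE 0.107, 10.2-fold, adjusted p = 2.52e-20). In limma on log2(FPKM + 1) these rises were 0.56 and 1.76. Gbp7, another GBP of the same chromosomal cluster, had 416, 394 and 423 counts in control cells, 732, 765 and 706 with LPS and 1203, 1307 and 1596 with PIC, again without overlap. Its rise was 2.01-fold with LPS (log2 1.01, SE 0.0589, adjusted p = 8.89e-16) and 3.58-fold with PIC (log2 1.84, SE 0.0578, adjusted p = 2.24e-24).

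Of the immunity-related GTPases, Irgm1 had 1642, 1742 and 1837 counts in control cells, 2179, 2376 and 2275 with LPS and 2841, 2780 and 3673 with PIC. All stimulated libraries were above all controls, by smaller factors than for Gbp2 and Gbp3. Its log2 change was 0.56 with LPS (SE 0.0346, adjusted p = 3.79e-13) and 0.94 with PIC (SE 0.0335, adjusted p = 6.24e-20). Igtp rose by 0.39 with LPS (SE 0.0550, adjusted p = 0.000158) and by 0.69 with PIC (SE 0.0539, adjusted p = 2.53e-09), with every library higher in each comparison. Iigp1 did not pass the edgeR test with either stimulus, although it passed with PIC in limma on log2(FPKM + 1) (log2 0.11, adjusted p = 0.046). It had 7, 9 and 14 counts in control cells, 5, 3 and 2 with LPS and 13, 22 and 15 with PIC, and its LPS libraries were all under its controls. The ratio of LPS to control counts, per library total, was 0.353 with a 95% counting interval of 0.154 to 0.742, and that of PIC to control was 1.55 with an interval of 0.964 to 2.52. Since Iigp1 entered the tests only through PIC, nothing is read from its pass in limma or from its ratio with PIC.

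Of the Mx genes, Mx2 had 329, 282 and 319 counts in control cells, 666, 623 and 594 with LPS and 828, 812 and 887 with PIC. Its conditions did not overlap, and it rose 2.28-fold with LPS (log2 1.19, SE 0.102, adjusted p = 3.45e-15) and 2.94-fold with PIC (log2 1.56, SE 0.110, adjusted p = 4.19e-19). Mx1 had 12, 21 and 13 counts in control cells, 14, 17 and 31 with LPS and 56, 59 and 61 with PIC. LPS overlapped the controls and PIC was above every other library. Its log2 difference was 0.60 with LPS (95% interval -0.10 to 1.29, adjusted p = 0.153), and with PIC it rose by 2.04 (SE 0.228, 4.12-fold, adjusted p = 3.49e-07).

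A gene was called against control when its adjusted p was under 0.01 and its log2 change over 2 in size. LPS then called 2 members, Gbp2 and Gbp3, where 1.64% of the 13691 tested genes were called. PIC called 4 members, Gbp2, Gbp3, Gbp5 and Mx1, where 3.57% of genes were called, and Mx1 missed the fold limit when control replicate 1 or control replicate 3 was left out (log2 1.93 and 1.91) and under total library size (1.83). In limma Gbp5 and Mx1 missed it on log2(FPKM + 1) (1.76 and 0.77), as did Mx1 on log2(FPKM + 0.1) (1.77). At an adjusted p under 0.05 with no fold limit, 7 members rose with LPS against 24.0% of tested genes and 8 with PIC against 28.6%. The median log2 change of the members was 1.01 with LPS and 1.84 with PIC, against -0.00 and -0.01 over all tested genes. These 2 comparisons share their control libraries. When libraries were scaled to total size instead of by TMM, the median over all genes moved to -0.23 with PIC against control, -0.15 with PIC+TBHQ against control and -0.14 with PIC against LPS, and the members' medians in these comparisons were then 1.62, 0.21 and 0.60.

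The second comparison, and the main one for TBHQ, asks how it changed the response when given before LPS. TBHQ took Gbp2 from 539, 583 and 622 counts with LPS to 80, 112 and 105 with LPS+TBHQ. No library of the pretreated cells came near one of LPS alone. Gbp2 fell by 2.80 on the log2 scale (SE 0.153, adjusted p = 1.09e-19), to 14.4% of its level with LPS. Gbp3 had 231, 204 and 248 counts with LPS+TBHQ against 988, 1035 and 1088 with LPS, again far apart. It fell by 2.44 (SE 0.0736, adjusted p = 4.74e-24), to 18.5% of its LPS level. Gbp5 had 13, 10 and 15 counts with LPS+TBHQ against 82, 88 and 113 with LPS, and it fell by 3.13 (SE 0.188, adjusted p = 3.91e-14), to 11.4%. Its change was smaller in limma, at -0.84 on log2(FPKM + 1) and -2.36 on log2(FPKM + 0.1). For Gbp5 the pretreated libraries were also under every control library, whose lowest count was 33.

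Gbp7 had 390, 421 and 415 counts with LPS+TBHQ against 732, 765 and 706 with LPS, and it fell by 1.09 (SE 0.0492, adjusted p = 5.03e-16), to 46.9%. Mx2 had 214, 214 and 232 counts against 666, 623 and 594, and it fell by 1.76 (SE 0.0517, adjusted p = 9.74e-19), to 29.5%. In both genes every pretreated library was under every LPS library, and Mx2 was also under its controls. Igtp had 241, 243 and 233 counts against 366, 415 and 384, and it fell by 0.95 (SE 0.0659, adjusted p = 4.68e-11), to 51.8%. Irgm1 had 1541, 1478 and 1762 counts against 2179, 2376 and 2275, and it fell by 0.76 (SE 0.0626, adjusted p = 4.89e-16), to 58.9%. By these edgeR estimates Irgm1 and Igtp kept the largest shares of their LPS level. The intervals of Igtp (-1.12 to -0.77) and Gbp7 (-1.22 to -0.96) overlapped, however. Among the members that passed as higher with LPS, Irgm1 and Igtp had also risen least (1.47-fold and 1.31-fold). Of their control level, LPS+TBHQ left Irgm1 at 86.7%, Igtp at 67.7%, Mx2 at 67.2% and Gbp5 at 32.65%. Gbp2, Gbp3 and Gbp7 stood at 126%, 95.2% and 94.2%. The larger shares of Irgm1 and Igtp therefore did not leave them closer to control than Gbp3 or Gbp7.

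Mx1 was barely detected after TBHQ, with 3, 1 and 1 counts in the LPS+TBHQ libraries against 14, 17 and 31 with LPS. The ratio of the summed counts, 5 against 62, was 0.0690 per library total with a 95% counting interval of 0.0217 to 0.170, and the adjusted p was 5.21e-07. Its fitted log2 change of -3.78 depends on the prior count and moved to -4.45 without LPS+TBHQ replicate 1. In limma it was -0.47 on log2(FPKM + 1) and -1.99 on log2(FPKM + 0.1). Iigp1 had 0, 0 and 4 counts with LPS+TBHQ against 5, 3 and 2 with LPS, which overlapped. The ratio was 0.342 with a counting interval of 0.0784 to 1.19 (adjusted p = 0.289), so that a difference was not detectable at this depth. It passed the threshold when LPS+TBHQ replicate 3, the library with 4 counts, was left out (adjusted p = 0.037, fitted log2 change -4.91).

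At an adjusted p under 0.05, the rule for direct comparisons, 8 of the 9 members were lower with LPS+TBHQ than with LPS, against 12.2% of tested genes lower. The same 8 members had every pretreated library under every LPS library, a separation that 2464 of 13691 tested genes had. The median log2 change was -1.76 over the members and 0.00 over all tested genes.

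TBHQ before PIC also lowered the family. Gbp2 had 372, 337 and 328 counts with PIC+TBHQ against 884, 911 and 1105 with PIC. The groups were apart, and Gbp2 fell by 1.51 (SE 0.0757, adjusted p = 7.85e-15), to 35.2% of its PIC level. Gbp3 had 835, 700 and 875 counts against 1632, 1609 and 2179, and it fell by 1.19 (SE 0.0663, adjusted p = 1.19e-17), to 43.8%. Gbp5 had 84, 101 and 93 counts against 335, 334 and 382, and it fell by 1.94 (SE 0.117, adjusted p = 2.22e-14), to 26.0%. In limma on log2(FPKM + 1) the change of Gbp5 was -1.25. Gbp7, at 868, 755 and 883 counts against 1203, 1307 and 1596, fell by 0.74 (SE 0.0409, adjusted p = 5.3e-13), to 60.0%. Mx2 had 366, 361 and 396 counts against 828, 812 and 887, and it fell by 1.20 (SE 0.0696, adjusted p = 3.22e-15), to 43.5%. In each of these genes the pretreated libraries were all under those of PIC alone and all above the controls.

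Among the immunity-related GTPases, Irgm1 had 2158, 1938 and 2216 counts with PIC+TBHQ against 2841, 2780 and 3673 with PIC, and it fell by 0.58 (SE 0.0354, adjusted p = 2.76e-13), to 66.9%. Igtp had 333, 267 and 336 counts against 459, 498 and 540, and it fell by 0.71 (SE 0.0802, adjusted p = 8.49e-09), to 61.2%. These Igtp libraries overlapped the controls, which had 320, 327 and 357 counts. Mx1 had 18, 12 and 15 counts with PIC+TBHQ against 56, 59 and 61 with PIC, and it fell by 1.99 (SE 0.144, adjusted p = 2.42e-06) with no overlap, and by 0.76 in limma on log2(FPKM + 1). Iigp1 had 8, 7 and 5 counts against 13, 22 and 15. All pretreated libraries were lower, and the adjusted p of 0.0456 (log2 change -1.34, SE 0.297) passed the threshold by little. The call was lost without any 1 of 11 libraries (each control, LPS replicates 1 and 2, PIC replicates 1 and 2, TBHQ replicate 1 and each PIC+TBHQ library), with an adjusted p between 0.0518 and 0.205, and also under total library size (adjusted p = 0.0539) and without a low-count filter (adjusted p = 0.075).

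With this rule 9 of 9 members were lower with PIC+TBHQ than with PIC, against 15.5% of tested genes. Every library was lower for all 9, as for 20.4% of tested genes, and the median log2 change was -1.20 over the members and 0.01 over all genes. Iigp1, which entered the tests only through PIC, is among the 9 by the margin given above, and nothing is read from its call. In DESeq2, where it had no adjusted p after independent filtering, 8 members were lower, and 2038 genes in all.

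**Figure D2:**
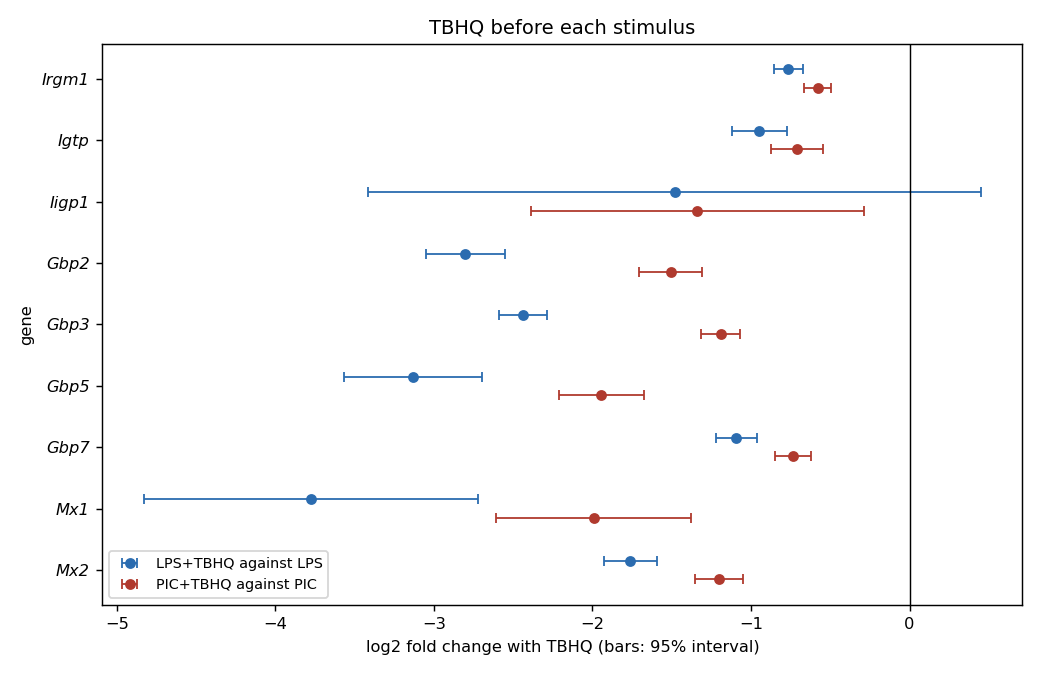
Log2 fold change of each GTPase gene (vertical axis lists the genes) with TBHQ before LPS against LPS alone and with TBHQ before PIC against PIC alone (horizontal axis, log2). Points are edgeR estimates and bars their 95% intervals, blue for LPS and red for PIC, from 3 libraries a condition. The estimate for Gbp2 was -2.80 with LPS and -1.51 with PIC, and that for Irgm1 was -0.76 and -0.58.

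Whether TBHQ lowered the family more before LPS than before PIC was tested directly, as the difference of its log2 effects. A positive difference means a smaller loss with PIC. The difference was 1.29 for Gbp2 (SE 0.171, 95% interval 0.97 to 1.62, adjusted p = 1.94e-06) and 1.24 for Gbp3 (SE 0.0990, interval 1.05 to 1.44, adjusted p = 7.69e-11). It was 1.19 for Gbp5 (SE 0.221, interval 0.64 to 1.74, adjusted p = 0.0126), 0.56 for Mx2 (SE 0.0867, interval 0.33 to 0.79, adjusted p = 0.00298) and 0.36 for Gbp7 (SE 0.0640, interval 0.19 to 0.53, adjusted p = 0.0173). So 5 members, the 4 guanylate-binding proteins and Mx2, passed at an adjusted p under 0.05, where 0.825% of tested genes had a higher value. DESeq2 had 4 members, with 101 genes in all having a higher value, and its independent filtering gave Gbp5 no adjusted p. Gbp5 missed the threshold without LPS replicate 3 or LPS+TBHQ replicate 2 (adjusted p = 0.0519 and 0.0854). In limma on log2(FPKM + 1) its difference had the opposite sign and passed (-0.41, adjusted p = 0.036), and on log2(FPKM + 0.1) it was 0.51 (adjusted p = 0.301). Gbp7 missed it without LPS replicate 2, PIC replicate 1, LPS+TBHQ replicate 1 or PIC+TBHQ replicate 1 (adjusted p from 0.0521 to 0.0728). In limma Gbp2 missed it on log2(FPKM + 0.1) and Mx2 on log2(FPKM + 1) (adjusted p = 0.0605 and 0.0514), as did Gbp7 on either scale (adjusted p = 0.0857 and 0.126).

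The remaining members did not pass that test of the difference. For Igtp it was 0.24 (95% interval 0.00 to 0.48, adjusted p = 0.351) and for Irgm1 0.18 (interval 0.06 to 0.31, adjusted p = 0.128), so that a gap of the size seen for Gbp2 or Gbp3 lies outside both intervals. Irgm1 passed without LPS+TBHQ replicate 3 (adjusted p = 0.0454) and under total library size (adjusted p = 0.0392). For Mx1 the difference was 1.78 with a wide interval of 0.44 to 3.13 (adjusted p = 0.178), and for Iigp1 it was 0.14 with an interval of -1.44 to 1.72 (adjusted p = 0.961). On log2(FPKM + 1) the Mx1 value was -0.29 (adjusted p = 0.216). The Iigp1 value moved to 3.57 without LPS+TBHQ replicate 3 and to -0.39 without LPS+TBHQ replicate 1, so nothing is read from it.

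Set against untreated cells, LPS+TBHQ left the members near or under their resting level. Gbp2 had 80, 112 and 105 counts against 70, 74 and 79 in control cells. In CPM scaled by TMM all pretreated libraries were higher, though not per library total. The log2 difference was 0.34 (95% interval -0.00 to 0.68, adjusted p = 0.105). It passed an adjusted p of 0.05 without TBHQ replicate 3 or LPS+TBHQ replicate 1 (adjusted p = 0.0445 and 0.0385). Gbp3 and Gbp7 overlapped their controls, with log2 differences of -0.07 (interval -0.26 to 0.11, adjusted p = 0.569) and -0.09 (interval -0.23 to 0.05, adjusted p = 0.328). The rise that LPS alone gave these genes was not detectable after TBHQ, within these intervals.

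A further 6 members were lower than in control cells at an adjusted p under 0.05, where 22.5% of tested genes were lower. Irgm1 fell by 0.21 (SE 0.0530, adjusted p = 0.000297), Igtp by 0.56 (SE 0.0474, adjusted p = 1.59e-06) and Mx2 by 0.57 (SE 0.0906, adjusted p = 1.98e-06). Gbp5 fell by 1.61 (SE 0.163, adjusted p = 2.67e-06), from 40, 33 and 38 counts to 13, 10 and 15. In limma on log2(FPKM + 1) its change was -0.27. Gbp5 therefore stood above the controls with LPS and under them with LPS+TBHQ. With TBHQ alone its libraries also lay under the controls (log2 -0.51, adjusted p = 0.0792 by edgeR). A joint effect of TBHQ and LPS was not tested. Mx1 and Iigp1 passed the stricter rule too, which makes 2 members against 0.964% of tested genes. The Mx1 ratio to control was 0.0986 with a counting interval of 0.0306 to 0.247 (adjusted p = 1.1e-05, fitted log2 change -3.18, and -3.85 without LPS+TBHQ replicate 1). Its strict call was lost in limma on log2(FPKM + 1) and log2(FPKM + 0.1), at -0.31 and -1.55. The Iigp1 ratio was 0.121 with an interval of 0.0310 to 0.343 (adjusted p = 0.00245). The strict call of Iigp1 was lost on the same scales (-0.13 and -0.87) and without control replicate 3, LPS+TBHQ replicate 1 or LPS+TBHQ replicate 2 (adjusted p from 0.0184 to 0.0204), and its fitted log2 change went from -2.86 to -6.29 without LPS+TBHQ replicate 3. All 6 had every library under every control, as 27.1% of tested genes did.

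PIC+TBHQ left part of the rise in place. Against control cells Gbp2 was still 4.93-fold higher (log2 2.30, SE 0.0764, adjusted p = 1e-16), Gbp3 3.75-fold (log2 1.91, SE 0.117, adjusted p = 1.2e-21) and Gbp5 2.65-fold (log2 1.41, SE 0.150, adjusted p = 1.65e-08). The Gbp5 change was 0.51 in limma on log2(FPKM + 1). Gbp7 rose by 1.11, Irgm1 by 0.36 and Mx2 by 0.35 on the log2 scale (adjusted p = 3.56e-17, 1.52e-08 and 0.000483). Every PIC+TBHQ library was above every control for these genes. Igtp, Mx1 and Iigp1 overlapped their controls, with log2 differences of -0.02 (interval -0.19 to 0.15), 0.05 (interval -0.68 to 0.78) and -0.49 (interval -1.63 to 0.65). Gbp2 alone passed the strict rule, 1 member against 2.15% of tested genes, and Gbp3 joined it without control replicate 1 (log2 2.01). The call of Gbp2 was lost in limma on log2(FPKM + 1) (log2 1.83). At an adjusted p under 0.05, 6 members were higher, against 26.4% of tested genes.

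TBHQ alone also stood under the controls across the family. Igtp had 194, 223 and 200 counts with TBHQ against 320, 327 and 357 in control cells. The groups were apart, and Igtp fell by 0.76 (SE 0.0833, adjusted p = 2.21e-08), to 59.1% of its control level. Irgm1 had 1375, 1353 and 1339 counts against 1642, 1742 and 1837, and it fell by 0.42 (SE 0.0242, adjusted p = 5.58e-09). Gbp2 had 32, 22 and 62 counts against 70, 74 and 79, and it fell by 1.00 (SE 0.397, interval of the log2 change -1.41 to -0.59, adjusted p = 0.00022). Gbp3 fell by 0.62 (SE 0.119, adjusted p = 5.5e-06), Mx2 by 0.57 (SE 0.114, adjusted p = 6.28e-06) and Gbp7 by 0.38 (SE 0.0825, adjusted p = 7.34e-05). In all 9 members every TBHQ library was under every control, as in 20.7% of tested genes.

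No member passed the strict rule with TBHQ alone in edgeR, 0 of 9 where 0.190% of tested genes were called, nor in DESeq2, which also called 0. At an unadjusted p under 0.05, edgeR had 9 members and DESeq2 8, all lower, where 5187 and 4773 genes had such a p in either direction. At an adjusted p under 0.05, 6 members were lower, against 14.8% of tested genes. The others were Gbp5 (log2 -0.51, interval -0.96 to -0.07, adjusted p = 0.0792), Mx1 (-0.87, interval -1.68 to -0.06, adjusted p = 0.101) and Iigp1 (-1.60, interval -2.90 to -0.30, adjusted p = 0.0578). Gbp5 and Iigp1 passed without TBHQ replicate 2 (adjusted p = 0.0448 and 0.0337), and Iigp1 also without LPS+TBHQ replicate 3 (adjusted p = 0.0476). The median log2 change was -0.62 over the members and -0.00 over all genes.

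PIC gave higher levels than LPS in the 8 members other than Iigp1, with or without TBHQ. Without TBHQ, 9 of 9 members were higher with PIC than with LPS, against 14.9% of tested genes, and every PIC library was above every LPS library for each, as for 19.2% of genes. DESeq2 had 8, where 1988 genes in all were higher, since its independent filtering gave Iigp1 no adjusted p. Iigp1 entered the tests only through PIC, so nothing is read from its call. Gbp5 was 3.56-fold higher with PIC (log2 1.83, SE 0.142, adjusted p = 1.22e-13). In limma on log2(FPKM + 1) it was 1.2 higher. The log2 step was 0.83 for Gbp7 (SE 0.0450, adjusted p = 3.41e-14), 0.73 for Gbp3 (SE 0.0585, adjusted p = 3.6e-12) and 0.67 for Gbp2 (SE 0.0581, adjusted p = 4.91e-07). Irgm1, Mx2 and Igtp were 0.38, 0.37 and 0.30 higher (adjusted p = 9.63e-09, 0.000116 and 0.00324), and Igtp missed the threshold under total library size (0.17, adjusted p = 0.078). Mx1 was 1.44 higher (SE 0.325, adjusted p = 0.000174), and 0.62 higher in limma on log2(FPKM + 1). Iigp1, with 13, 22 and 15 counts against 5, 3 and 2, was 2.23 higher (SE 0.341, adjusted p = 0.00398).

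After TBHQ the step between the stimuli was larger for the 5 members that passed the test of the difference of TBHQ effects, which is the same quantity. All 9 were higher with PIC+TBHQ than with LPS+TBHQ, against 11.9% of tested genes. In DESeq2 8 were, and 1409 genes in all, again with no adjusted p for Iigp1. Gbp5 was 8.12-fold higher, at 84, 101 and 93 counts against 13, 10 and 15 (log2 3.02, SE 0.170, adjusted p = 1.8e-13). In limma this Gbp5 step was 0.79 on log2(FPKM + 1) and 2.27 on log2(FPKM + 0.1). Gbp3 was 1.98 higher (SE 0.0799, adjusted p = 5.36e-21), Gbp2 1.97 (SE 0.161, adjusted p = 1.72e-14), Gbp7 1.19 (SE 0.0455, adjusted p = 4.72e-17) and Mx2 0.93 (SE 0.0296, adjusted p = 1.7e-10). Irgm1 was 0.56 and Igtp 0.54 higher (adjusted p = 2.58e-12 and 9.8e-06). Mx1 was higher too, at 18, 12 and 15 counts against 3, 1 and 1 (adjusted p = 2.48e-05). Iigp1, at 8, 7 and 5 counts against 0, 0 and 4, passed by little (adjusted p = 0.0374), and the call was lost without any 1 of 4 libraries, replicates 1 and 2 of LPS+TBHQ and of PIC+TBHQ (adjusted p from 0.0908 to 0.159). It was also lost in limma on log2(FPKM + 1) and log2(FPKM + 0.1) (adjusted p = 0.228 and 0.0704).

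The order of the 6 conditions was much alike from gene to gene. PIC stood highest for the 8 members other than Iigp1, apart from the next condition in each. For Irgm1 the order was PIC, LPS, PIC+TBHQ, control, LPS+TBHQ and TBHQ, with no neighbours overlapping. For Gbp2 it was PIC, LPS, PIC+TBHQ, LPS+TBHQ, control and TBHQ, again without overlap. Gbp3 followed PIC, LPS, PIC+TBHQ, control, LPS+TBHQ and TBHQ, where control and LPS+TBHQ did not differ beyond their spread. Mx2 followed PIC, LPS, PIC+TBHQ and control, with TBHQ and LPS+TBHQ overlapping at the bottom.

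In Gbp7 PIC was followed by PIC+TBHQ and LPS, which overlapped, and control overlapped LPS+TBHQ, above TBHQ. In Igtp LPS came next after PIC, control and PIC+TBHQ overlapped, and LPS+TBHQ overlapped TBHQ at the bottom. In Gbp5 LPS and PIC+TBHQ overlapped, followed by control, TBHQ and LPS+TBHQ, each apart. Mx1 had LPS, PIC+TBHQ and control overlapping in the middle, with TBHQ below and LPS+TBHQ lowest. No order is read for Iigp1, which entered the tests only through PIC and overlapped between most neighbouring conditions. By mean level LPS+TBHQ was the lowest condition for Gbp5 and Mx1, while TBHQ alone was lowest for Gbp2, Gbp3, Gbp7, Igtp and Irgm1. For Mx2 both had a mean of 3.59 FPKM.

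Some members are neighbours in the genome. In the positions of the deposited annotation, Gbp5, Gbp7, Gbp3 and Gbp2 run in that order on the plus strand of chromosome 3, between 142199739 and 142343769, a stretch of 144031 bases that also holds Gbp2b. Mx1 (97248235 to 97264107, minus strand) and Mx2 (97336508 to 97362100, plus strand) are neighbours on chromosome 16 with 72400 bases between them, and Irgm1 and Igtp lie apart on chromosome 11.

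Related members share some sequence, which bears on how reads are assigned. Of the 50-base words of its transcripts, Gbp7 shared 12.7% with other genes, mostly with Gm43802, a pseudogene with 0 counts in every library, and Igtp shared 11.8% with Irgm2. The other members shared under 10%, with 4.37% for Mx1 and 4.38% for Mx2. Igtp and Irgm2 overlap on the same strand over 7974 bases, so that their counts are less certain than those of the other members. Irgm2, which like Irgm1 and Igtp is a regulator of the effectors, moved the same way as Igtp in the comparisons with and without TBHQ, as given next.

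**Figure D3:**
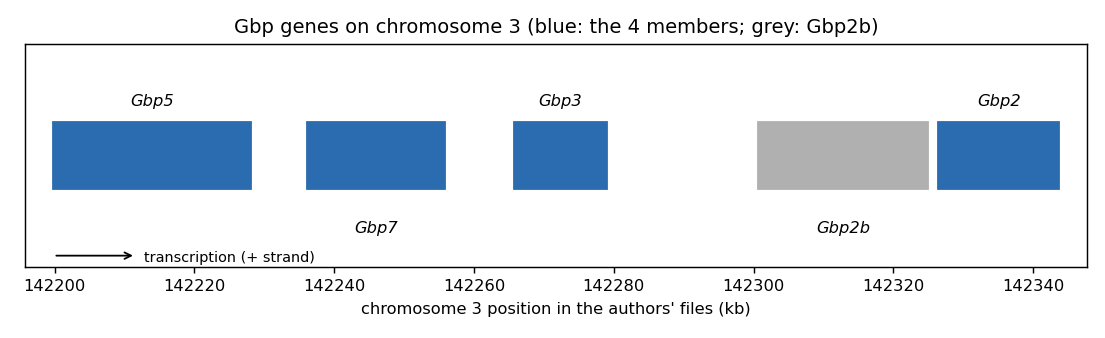
Map of the cluster of guanylate-binding protein genes on chromosome 3 (horizontal axis, position in the deposited annotation), in kb, each gene drawn to scale from start to end, with the 4 members in blue, Gbp2b in grey and an arrow for transcription on the plus strand. The genes follow each other from Gbp5 to Gbp2 within 144031 bases, and none overlaps its neighbour.

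Relatives of the members and lists of other genes were counted at an adjusted p under 0.05. Over all 13691 tested genes, 12.2% were lower and 11.7% higher with TBHQ before LPS. Before PIC 15.5% were lower and 15.8% higher, and the counts below are read beside these shares. Of 7 other guanylate-binding protein genes, 3 were tested and 2, Gbp2b and Gbp9, were lower with TBHQ before LPS and before PIC. Gbp2b, the neighbour of Gbp2, averaged 1.26 ± 0.208 FPKM in control cells, 10.5 ± 1.04 with LPS and 1.53 ± 0.443 with LPS+TBHQ. It fell by 2.78 with TBHQ before LPS (SE 0.275, adjusted p = 1.44e-17) and by 1.44 before PIC (SE 0.178, adjusted p = 1.2e-12), and the difference of 1.33 passed the test as for Gbp2 (SE 0.328, adjusted p = 2.33e-05). Gbp9 fell by 1.54 and 1.04 (SE 0.213 and 0.155, adjusted p = 3.94e-09 and 1.04e-06). The control libraries held 59 to 82 counts of Gbp8, which did not pass before either stimulus (log2 0.16 and 0.12, adjusted p = 0.853 and 0.925). Gbp4, Gbp6, Gbp10 and Gbp11 had too few counts to test, with 21 at most in a library.

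Of 12 other immunity-related GTPase genes, 8 were tested, and 6 were lower with TBHQ before LPS and 6 before PIC, with none higher. Irgm2 fell by 0.88 before LPS (SE 0.0605, adjusted p = 5e-11) and by 0.54 before PIC (SE 0.0711, adjusted p = 3.28e-07). Ifi47, also called Irgd, fell by 0.60 and 0.67 (SE 0.0905 and 0.108, adjusted p = 8.42e-05 and 2.32e-06). The annotated gene 9930111J21Rik2 fell by 0.77 and 0.43 (adjusted p = 1.18e-05 and 0.0126) and Irgq by 0.38 and 0.16 (adjusted p = 1.38e-05 and 0.0371). Tgtp2 fell by 1.42 and 1.83 (adjusted p = 0.0304 and 0.00143) and Gm5431 by 2.88 and 1.06 (adjusted p = 7.29e-05 and 0.0401), each with few counts. Tgtp2, Gm5431 and 9930111J21Rik2 share 86.6%, 37.3% and 59.8% of their words with other genes, so that their counts are less certain. Of the very large interferon-inducible GTPases 3 were tested, and 2 were lower in each comparison, Gvin2 by -0.63 and -0.45 on the log2 scale (adjusted p = 0.000193 and 0.00477).

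The dynamin relatives of Mx1 and Mx2 that are not interferon genes were mixed. Of 9 tested, 2 were lower and none higher with TBHQ before LPS, and 3 were lower and 2 higher before PIC. Atl1, chosen after its values were seen and with at most 39 counts in a library, fell by 1.05 before PIC (SE 0.249, adjusted p = 0.0138). Dnm1l, which divides mitochondria, fell by 0.13 in each (adjusted p = 0.016 and 0.013), Atl3, an atlastin of the endoplasmic reticulum, fell by 0.13 and 0.23 (adjusted p = 0.0382 and 0.0003), and Dnm1 and Dnm2 were 0.42 and 0.15 higher before PIC (adjusted p = 0.0221 and 0.00121).

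Upstream of the members, no interferon gene could be tested. Of 13 ligand genes all fell under the low-count filter, and Ifnb1 summed to 4 counts in control cells, 3 with LPS, 22 with PIC, 8 with TBHQ and 5 with each combination. Of the receptor genes 5 of 6 were tested in edgeR and 0 passed an adjusted p under 0.05 with TBHQ before LPS or before PIC. At an unadjusted p under 0.05 there were 0 before LPS and 1 before PIC, Il10rb, and DESeq2 gave the same counts. The Ifnar1 difference was 0.04 before LPS (interval -0.06 to 0.14) and 0.03 before PIC (interval -0.08 to 0.13). For Ifnar2 it was -0.06 (interval -0.20 to 0.08) and -0.05 (interval -0.20 to 0.09).

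Kinases and transcription factors of the pathway were mostly lower. Of 12 genes 8 were lower and 1 higher with TBHQ before LPS, and 9 were lower and 1 higher before PIC. Irf7, the factor that amplifies type I interferon, fell by 1.38 before LPS (SE 0.0400, adjusted p = 6.41e-25) and by 0.75 before PIC (SE 0.0353, adjusted p = 5.26e-18). Stat2 fell by 0.80 and 0.52 (SE 0.0619 and 0.0591, adjusted p = 5.06e-15 and 1.26e-10). Irf2 was 0.20 higher before LPS and Irf3 0.20 higher before PIC (adjusted p = 0.0381 and 0.0117). Of 8 feedback genes 2 were higher in each comparison, while 2 were lower before LPS and 3 before PIC. Socs3 fell by 0.85 and 0.69 (adjusted p = 5.56e-17 and 2.9e-15) and Usp18, which restrains the interferon receptor, by 0.68 and 0.38 (adjusted p = 5.03e-16 and 7.12e-10). Ptpn2 fell by 0.23 before PIC (adjusted p = 0.00599). Ptpn1 was 0.17 and 0.35 higher (adjusted p = 0.00825 and 4.43e-07) and Ptpn6 was 0.11 higher in each (adjusted p = 0.0186 and 0.0131).

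Genes that work beside the GTPases at vacuoles and in cell death were counted in the same way. Of 14 genes of vacuole marking and autophagy, 5 were lower and none higher with TBHQ before LPS, and 4 were lower and 1 higher before PIC. Trim21 fell by 0.52 before LPS (adjusted p = 3.97e-05), Traf6 by 0.23 and 0.31 (adjusted p = 0.00614 and 0.000158) and Atg3 by 0.23 before PIC (adjusted p = 0.000134), and Map1lc3b was 0.19 higher before PIC (adjusted p = 0.00325). Of 8 tested inflammasome genes 4 were lower and 1 higher before LPS, and 3 lower and 1 higher before PIC. Casp4, the sensor of cytosolic LPS that guanylate-binding proteins help to reach bacteria, fell by 0.70 and 0.60 (adjusted p = 1.07e-10 and 1.6e-09), and Gsdmd, its pore-forming substrate, by 0.52 and 0.35 (adjusted p = 6.92e-11 and 2.25e-07). Nlrp3 fell by 0.22 and 0.63 (adjusted p = 6.95e-05 and 1.76e-15), and Nlrp1b was 0.32 and 0.26 higher (adjusted p = 0.0124 and 0.0402).

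The cells carried macrophage markers throughout. Of 10 such genes 9 averaged at least 1 FPKM, Lyz2 was the most abundant at 4021 FPKM, and their sum lay between 5728 and 6719 FPKM in every library. Among 9 tested, 4 were lower and 3 higher with TBHQ before LPS and likewise before PIC. The high-affinity antibody receptor Fcgr1 fell by 1.37 and 1.08 (adjusted p = 1.39e-15 and 5e-12), while Csf1r was 0.39 and 0.45 higher (adjusted p = 2.26e-10 and 4.92e-12). Markers of fibroblasts, epithelium, endothelium, T cells and B cells summed to at most 0.338 FPKM per list in any library.

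Levels of the members rose and fell together over the 18 libraries. Among the 7 members with a mean of at least 50 counts, Pearson correlations of log2 CPM ran from 0.857 (Gbp2 with Gbp5) to 0.982 (Gbp2 with Gbp3), with a median of 0.936 over 21 pairs. Mx1 followed them at 0.703 to 0.933. Iigp1 followed less closely, at 0.428 to 0.722. All of these describe 18 libraries that share 6 conditions.

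Outside the members, the gene most like Gbp2 in level over the 18 libraries was Irf7 (r = 0.989). It was Tapbp for Gbp3 (r = 0.992), Znfx1 for Gbp5 (r = 0.984) and Rsad2 for Gbp7 (r = 0.992). For Igtp it was Ifi44 (r = 0.986), for Irgm1 Samd9l (r = 0.990), and for Mx2 Samhd1 (r = 0.988). For the low genes it was Trim21 for Mx1 (r = 0.948) and Snx25 for Iigp1 (r = 0.935). These came from 10444 ranked genes with a mean of at least 50 counts. The next in line were H2-D1 and Oas1a for Gbp2, Lgals3bp and Irf7 for Gbp3, Cmpk2 and Ifit1 for Gbp5, Slfn2 and Ifih1 for Gbp7, Ifi207 and Gbp9 for Igtp, Slfn5 and Sp100 for Irgm1, Mov10 and Ifit3 for Mx2, Aig1 and Csf2rb2 for Mx1, and Ccdc174 and 9530068E07Rik for Iigp1. The mean of the members was followed most closely by Ifit3 (r = 0.986), then Apol9a, Ifit3b, Rtp4, Ifit1, Cmpk2, Oasl2, Parp14, H2-T23 and Parp12 (r = 0.976).

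Since the members moved together, the letters before their starts are shown. RefSeq promoter windows of build GRCm38.p6, each 300 bases from 250 before to 50 after a gene's start, matched 6 of the 9 members by symbol, namely Gbp2, Gbp3, Gbp5, Gbp7, Igtp and Irgm1. Iigp1, Mx1 and Mx2 had no entry. The interferon-stimulated response element, the motif bound by complexes of STAT and IRF proteins, was searched as GAAANNGAAA and on the other strand TTTCNNTTTC. It was present in at least 1 window of 6 of these 6 members. Counted by window and not by gene, it was in 3.44% of all 32851 windows and 3.24% of 12150 windows of tested genes. The members were chosen as interferon-inducible genes, so that setting them beside these shares is not an independent test. The capitals mark its letters, in 50 to 56 bases read along the strand of each gene.
Gbp2: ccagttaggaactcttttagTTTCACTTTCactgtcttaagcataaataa
Gbp3: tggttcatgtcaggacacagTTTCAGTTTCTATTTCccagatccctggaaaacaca
Gbp5: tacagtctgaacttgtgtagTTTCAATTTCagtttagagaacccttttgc
Gbp7: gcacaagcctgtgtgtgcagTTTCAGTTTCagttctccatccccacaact
Igtp: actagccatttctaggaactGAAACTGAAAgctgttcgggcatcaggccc
Irgm1: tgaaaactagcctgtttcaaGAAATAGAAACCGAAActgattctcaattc

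In GRCm38.p6 these stretches are chr3:142620584-142620633 on the plus strand for Gbp2, chr3:142559979-142560034 plus for Gbp3, chr3:142496749-142496798 plus for Gbp5, chr3:142530263-142530312 plus for Gbp7, chr11:58199502-58199551 plus for Igtp and chr11:48871421-48871470 minus for Irgm1. The match began 59 bases before the start of Gbp2, 165 before Gbp5, 53 before Gbp7 and 34 before Igtp. Gbp3 held 2 overlapping matches, at 45 and 39 bases before the start, and Irgm1 also held 2, at 30 and 24. The other window of Gbp3 held none. Among relatives with a window, Gbp2b, Irgm2, Tgtp1, Tgtp2, Gm12250 and 9930111J21Rik1 held the element. Of these, Gbp2b, Irgm2 and Tgtp2 were lower with TBHQ before each stimulus. Gm12250 and 9930111J21Rik1 passed before neither stimulus, and Tgtp1 was not tested. Ifi47, Gm5431, 9930111J21Rik2 and Irgq held none, although they too were lower with TBHQ before each stimulus. In the 4 guanylate-binding genes the letters read TTTCNNTTTC along the gene, and in Igtp and Irgm1 GAAANNGAAA.

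A further pair of motifs was searched in the same windows. The interferon-gamma-activated site TTCNNNGAA, which reads the same on both strands, was in Gbp5 (2 matches), Gbp7 (2) and Igtp (1), and in 8.30% of all windows, and none of these overlapped the response element. The antioxidant response element, searched as TGACNNNGC and GCNNNGTCA since TBHQ activates Nrf2, had 1 match in Igtp and none in the other 5, and was in 12.4% of all windows. A match describes letters in a window and shows no binding in these cells.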

How the data were processed

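RNA of 18 libraries was sequenced by the study. The authors deposited a table of raw read counts per gene, and FPKM values that they computed from those counts and gene lengths. The submitters' processing notes name HISAT2 2.0.5, StringTie 1.3.3b and featureCounts 1.5.0-p3, and a mouse genome given as GRCm38/mm39. Gene positions are those of the deposited annotation, which are not GRCm38 positions, whereas promoter coordinates are RefSeq's on GRCm38.p6.

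Counts were fitted in 1 model of all 6 conditions with edgeR 4.0.16 (TMM scaling, filterByExpr, quasi-likelihood tests, Benjamini-Hochberg adjustment over 13691 genes) in R 4.3.3. SE values come from the spread of log2 CPM between replicates, and intervals from the quasi-likelihood fit. Genes were called against control at an adjusted p under 0.01 and a log2 change over 2, and in direct comparisons at an adjusted p under 0.05. DESeq2 1.42.0, limma 3.58.1, other scalings and filters, a replicate block and leaving out each library were alternatives. The scripts were tested on simulated counts. Tables and plots were made with matplotlib 3.10.9, scipy 1.17.1, numpy 2.4.6 and pandas 2.3.3 under Python 3.11.15.

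All 9 members were described. From lists of other GBP, IRG, very large GTPase, dynamin, interferon ligand, receptor, JAK-STAT-IRF, feedback, vacuole and autophagy, inflammasome and cell marker genes, called genes with a mean of at least 50 counts were named, up to the 3 lowest and 2 highest per list and comparison. Genes of the other GBP and IRG, ligand and receptor lists could be named whatever their counts, calls or number, and Atl1 was named after its values were seen. The 3 genes most correlated with each member, and 10 with their mean, were also named. Members and lists were chosen with earlier results of these data known.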

Additional observations from a re-analysis of the deposited data

Results flagged for a closer look

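The effect of TBHQ differed between the stimuli for 6 GTPase genes, by the test of the difference of log2 effects (effect before PIC minus effect before LPS, edgeR quasi-likelihood with Benjamini-Hochberg adjustment, 3 libraries a condition). The difference was 1.29 for Gbp2 (adjusted p = 1.94e-06), 1.24 for Gbp3 (adjusted p = 7.69e-11) and 1.33 for Gbp2b (adjusted p = 2.33e-05), each of which lost more with LPS. It was 1.19 for Gbp5 (adjusted p = 0.0126), 0.56 for Mx2 (adjusted p = 0.00298) and 0.36 for Gbp7 (adjusted p = 0.0173). In limma on log2(FPKM + 1) the Gbp5 difference was -0.41 (adjusted p = 0.036). On that scale Mx2 missed the threshold (adjusted p = 0.0514), as did Gbp2 on log2(FPKM + 0.1) (adjusted p = 0.0605) and Gbp7 on either scale. The edgeR call was also lost without any 1 of 4 libraries for Gbp7 and of 2 for Gbp5. What lies behind the difference was not tested.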

How the results depend on the processing

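Of the members' log2 changes, those of Gbp2, Gbp3, Gbp5, Gbp7, Irgm1, Igtp, Mx1 and Mx2 with TBHQ against the matching stimulus kept their direction and an adjusted p under 0.05 in every alternative that tested them. The size of the Gbp5 and Mx1 changes moved with the offset on FPKM, and Iigp1 lost its call in some alternatives. Causes of the changes listed here were not tested.

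Members called at an adjusted p under 0.05 with no fold limit against control numbered 6 (TBHQ), 7 (LPS), 8 (PIC), 6 (LPS+TBHQ) and 6 (PIC+TBHQ), and all genes, in the same order, 3973, 6589, 8037, 5983 and 7178. With a log2 limit of 1 at an adjusted p under 0.01, members numbered 5 with LPS and 4 with PIC+TBHQ against control, 5 for PIC+TBHQ against PIC, 3 for PIC against LPS, 5 for PIC+TBHQ against LPS+TBHQ and 2 for the difference of TBHQ effects. All genes then numbered 190, 880, 1645, 591 and 1100 in the order given, 183 and 233 for TBHQ before LPS and PIC, 177 and 116 for PIC over LPS without and with TBHQ, and 13 for the difference. The 3 members for PIC against LPS include Iigp1, which entered the tests only through PIC, so nothing is read from its call.

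With limma on log2(FPKM + 1), members against control numbered 2 (PIC), 0 (LPS+TBHQ) and 0 (PIC+TBHQ), and 3 for the difference (Gbp2, Gbp3 and, with the opposite sign, Gbp5), and all genes 2, 61, 154, 29 and 73 in the same order. On log2(FPKM + 0.1) members numbered 0 with LPS+TBHQ and 2 for the difference, and all genes 13, 148, 83 and 187 with TBHQ, LPS, LPS+TBHQ and PIC+TBHQ and 147 for the difference. With a mean of at least 50 counts 0 members were called with LPS+TBHQ against control, since Mx1 and Iigp1 are then not tested, and all genes numbered 7, 116, 246, 64 and 146. DESeq2 called 1 member with LPS+TBHQ against control, where 101 genes in all were called higher and 14 lower. With edgeR on the compared libraries only, 1 member was also called there, and 16 genes were called with TBHQ. Without a filter 380 genes were called for the difference.

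Leaving out each library in turn gave against control 3 to 4 members (PIC), 1 to 2 (LPS+TBHQ) and 1 to 2 (PIC+TBHQ). All genes, in the same order, then ranged from 499 to 527, 133 to 153 and 285 to 315. There were 8 to 9 members for LPS+TBHQ against LPS (2599 to 3337 genes) and 8 to 9 for PIC+TBHQ against PIC (3487 to 4282 genes). PIC+TBHQ against LPS+TBHQ had 8 to 9 members (2185 to 2800 genes), and the difference had 4 to 6 (160 to 354 genes). Genes are counted in either direction.

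Some signs turned. Against control, Gbp3 with LPS+TBHQ was 0.0345 without control replicate 1 and ranged down to -0.1445 over the left-out libraries. Igtp with PIC+TBHQ was 0.0356 without PIC+TBHQ replicate 2 and ranged down to -0.0626. Mx1 with PIC+TBHQ was -0.10 under total library size, -0.06 and -0.09 without control replicates 1 and 3 and -0.0936 without PIC+TBHQ replicate 1, and ranged up to 0.3374. For the difference of TBHQ effects, Gbp5 was -0.41 (adjusted p = 0.036) and Mx1 -0.29 on log2(FPKM + 1). Iigp1 was -0.11 there, -0.41 on log2(FPKM + 0.1), -0.26 without LPS replicate 1, -0.04 without PIC replicate 3 and -0.39 and -0.38 without LPS+TBHQ replicates 1 and 2, and it ranged up to 3.57 over the left-out libraries.

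Under total library size the share of calls that were higher moved from 75.7% to 62.0% for PIC against control by the strict rule. At an adjusted p under 0.05 it moved against control from 49.8% to 35% (LPS), 48.7% to 26.4% (PIC), 48.4% to 36.1% (LPS+TBHQ) and 50.4% to 30.0% (PIC+TBHQ). It moved from 48.9% to 59.5% for TBHQ before LPS, 50.6% to 70.3% for TBHQ before PIC, 53.7% to 18.4% for PIC over LPS, 58.5% to 25.6% for PIC over LPS after TBHQ and 45.0% to 76.1% for the difference, where DESeq2 gave 28.0%.

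Same-numbered libraries were not seen to deviate together (45 pairs, r from -0.0444 to 0.0645, 7 of 18 libraries closest to their own number). That check cannot exclude that cultures of the same number were handled together. A replicate block gave 8 members for PIC+TBHQ against PIC, without Iigp1 (adjusted p = 0.0519), and the same counts of members elsewhere.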

Other observations

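Gbp8 fell with LPS and with PIC, where most members rose, and it was also lower with TBHQ alone. It averaged 1.28 ± 0.148 FPKM in control cells, with 214 counts over 3 libraries, and 31 counts with LPS, 9 with PIC and 26 with TBHQ. The ratio to control per library total was 0.154 with LPS (95% counting interval 0.102 to 0.224), 0.0390 with PIC (interval 0.0176 to 0.0755) and 0.117 with TBHQ (interval 0.0744 to 0.175). Gbp8 overlaps Gbp9 and Gbp4 on the same strand and shares 18.1% of its 50-base words with other genes, so that its counts are less certain. Gbp9, in the same stretch of chromosome 5, rose by 0.76 with LPS and by 1.14 with PIC on the log2 scale (adjusted p = 9.36e-05 and 3.78e-08 by edgeR). It overlaps Gbp8 and Gbp4 on the same strand, so that its counts are less certain too.

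Nlrp3 lost more with TBHQ before PIC than before LPS, the other way round from Gbp2 and Gbp3. The difference of its log2 effects was -0.41 (SE 0.0391, adjusted p = 1.22e-05), whereas it was 0.63 for Irf7 (SE 0.0534, adjusted p = 3.59e-10), 0.30 for Usp18 (SE 0.0509, adjusted p = 0.00119) and 0.28 for Stat2 (SE 0.0856, adjusted p = 0.028).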
